A study of Mus musculus with 12 samples.

Results

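The integrated stress response and the unfolded protein response were followed through 39 genes, which were picked by symbol among the 55573 genes of the count table. They fall into 7 roles: 5 transcription factors of the integrated stress response, 4 stress effectors and feedback genes, 6 enzymes of amino acid synthesis, 7 amino acid transporters, 4 secreted or surface genes, 9 chaperones of the endoplasmic reticulum (ER), and 4 genes of the unfolded protein response and ER-associated degradation. Of the 39 genes, 38 had enough reads to be tested, and the hormone gene Fgf21 had not. The question was whether the amino acid genes controlled by Atf4 and the ER chaperones moved together when Met and FGF receptors were inhibited.

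The libraries came from tumourspheres, cells grown in suspension as spheres, of 3 mouse breast tumour cell lines named A1005, A1129 and A1471. All 12 libraries, controls included, carry the genotype MMTV-Metmt;Trp53fl/+;Cre, so no library lacks the Met transgene in its genotype. The MMTV promoter drives mutant Met, and 1 allele of Trp53 is floxed. The study calls these lines spindloid and states that the endogenous Met gene becomes amplified in this model. Whether Met reads came from the transgene or the endogenous gene was not tested. Each line was treated for 24 h with DMSO (the vehicle), with Crizotinib (an inhibitor of the Met kinase), with PD173074 (an inhibitor of FGF receptor kinases) or with both, called the combination below. There was 1 library for each line and treatment, so each treatment had n = 3 lines and each line is 1 tumour-derived culture. The promoter that drives Cre is not given in the sources used here.

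When amino acids run short, or when unfolded proteins collect in the ER, kinases phosphorylate the translation factor eIF2. General translation then slows while translation of Atf4 increases, and Atf4 with its partners turns on genes for amino acid synthesis and uptake, for tRNA charging and for feedback. The ER has its own sensors, whose factors Xbp1 and Atf6 turn on chaperones and the machinery that exports misfolded proteins for degradation. Both responses are known to be active in fast-growing and secretory tumour cells.

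The elements through which these factors are known to act could be read in the promoters of the genes described below. RefSeq windows on GRCm38.p6, from 250 bases before to 50 bases after the start of transcription, were matched for 37 of the 39 genes in 44 windows, and not for Slc7a5 and Manf. The core of the amino acid response element, TGATGNAA, was searched on both strands and lay in 3.97% of all 32851 windows and in windows of 10 of the 39 genes. Among the amino acid genes 4 of 12 with a window held it, and among the ER chaperones 0 of 8. The ER stress response element, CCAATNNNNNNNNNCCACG, lay in 0.119% of all windows and in windows of 5 of the 8 ER chaperones and 0 of the 12 amino acid genes. Its second form, ATTGG and CCACG parted by 1 base, lay in 0.0365% of all windows and in that of Herpud1. The unfolded protein response element TGACGTGG lay in 0.676% of all windows and in none of the 44.

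The following stretches show the amino acid response core in capitals for 3 amino acid genes and the feedback gene Chac1. The fourth amino acid gene with a core, Slc1a4, is not shown because its core touches the start of transcription. They lie at chr6:7693214-7693243 for Asns, chr3:50443647-50443704 for Slc7a11, chr11:120643819-120643876 for Pycr1 (all 3 on the minus strand) and chr2:119351024-119351081 for Chac1 (plus strand). In Chac1 the core is on the reverse strand, and Slc7a11 holds a second core, in lower case here, in the reverse direction. Cores also lay in windows of Nupr1, Trib3, Vldlr and Fgf21, which are not printed, and of Herpud1, printed below. Genes with a core did not all fall in the combination. With the line as a block, Nupr1 changed by 1.51 and Trib3 by -1.78 on the log2 scale, and Vldlr gave no call.
Asns: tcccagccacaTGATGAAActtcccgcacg
Slc7a11: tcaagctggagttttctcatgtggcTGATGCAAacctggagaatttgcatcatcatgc
Pycr1: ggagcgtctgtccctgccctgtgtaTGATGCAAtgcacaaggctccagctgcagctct
Chac1: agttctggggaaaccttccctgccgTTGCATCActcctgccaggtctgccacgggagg

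The stretches of the ER chaperones show the ER stress response element in capitals. They lie at chr12:17266466-17266534 for Pdia6 and chr2:34772020-34772048 for Hspa5 (plus strand), chr10:86705613-86705681 for Hsp90b1 and chr8:84847050-84847118 for Calr (minus strand), and chr15:88819495-88819563 for Creld2 (plus strand). In Calr and Creld2 the element runs in the reverse direction. Hsp90b1 holds a second element, not printed, in the reverse direction in the stretch chr10:86705528-86705556 (minus strand).
Pdia6: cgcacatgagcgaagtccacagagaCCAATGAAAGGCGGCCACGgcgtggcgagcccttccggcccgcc
Hspa5: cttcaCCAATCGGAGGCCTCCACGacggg
Hsp90b1: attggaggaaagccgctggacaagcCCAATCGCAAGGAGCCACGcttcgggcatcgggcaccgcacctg
Calr: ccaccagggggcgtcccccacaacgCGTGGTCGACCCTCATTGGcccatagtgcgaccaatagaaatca
Creld2: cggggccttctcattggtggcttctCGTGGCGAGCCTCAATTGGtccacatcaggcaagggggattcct

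Herpud1 was the 1 gene of the 39 whose window held both kinds of element. Its second-form ER stress element lies at chr8:94386352-94386412 and its amino acid response core, in the reverse direction, at chr8:94386292-94386349 (both on the plus strand).
Herpud1: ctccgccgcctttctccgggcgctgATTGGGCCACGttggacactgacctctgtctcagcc
Herpud1: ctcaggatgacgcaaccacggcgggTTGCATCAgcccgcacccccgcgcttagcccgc
A match of letters is a description of the window, and factor binding was not measured.

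Library totals ranged from 13031492 to 17750476 counts, and 13836 genes were tested. The targets of ERK signalling Spry4, Dusp6, Etv4 and Etv5 fell in the combination, with log2 changes of -4.74, -4.99, -5.03 and -5.98 for Etv4, Etv5, Dusp6 and Spry4 and adjusted p between 4.30e-05 and 0.00343, while the target genes Met (0.30 ± 0.44, adjusted p = 0.722) and Fgfr1 (-0.11 ± 0.15, adjusted p = 0.711) gave no call. Of 6 mesenchymal markers 5 were expressed, with Cdh2 at 6 counts or fewer. Of 7 epithelial markers 2 passed the filter, Krt8 with 17 to 611 counts and Krt18 with 53 to 748. Krt5 and Cldn7 were at 0 in all 12 libraries. None of 4 endothelial markers was expressed above the filter. Of 6 leukocyte markers 2 passed it: Ptprc had 174 to 339 counts in the A1005 libraries and 0 to 2 in the others, and the summed CPM of the list was 31.5 to 42.0 in A1005 and 4.47 to 10.9 in A1129. The mesenchymal factor Prrx1 had 2 to 8 counts in A1005 and 2024 or more in the others. In the combination Twist1 fell (-1.09 ± 0.15, adjusted p = 0.00156), and with the block Prrx1 (-0.92 ± 0.18, adjusted p = 0.00154) and Krt18 (-0.996 ± 0.137, adjusted p = 0.000225) fell and the leukocyte marker Cd68 rose (0.82 ± 0.20, adjusted p = 0.00603). The other markers past the filter gave no call with or without the block. With the block Fn1 changed by 1.31 ± 0.72 (adjusted p = 0.148), with 3.27 in A1471 and -0.35 in A1129. Zeb1 changed by 0.24 ± 0.10 (adjusted p = 0.0671) and Krt8 by 0.46 ± 0.42 (adjusted p = 0.381). Vim changed by -0.17 ± 0.12 (adjusted p = 0.249) and Ptprc by 0.09 ± 0.43 (adjusted p = 0.881). The part of these markers in the values below was not tested.

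All 12 libraries entered 1 quasi-likelihood test of edgeR, with Benjamini-Hochberg adjustment over all 13836 genes and a threshold of 0.05. The test was made without a term for the line, which follows the unpaired analysis of the study and is called unpaired below, and again with the line as a block, since the same 3 lines received each treatment. Fold changes are log2 differences with a standard error, and levels are counts relative to the library size (CPM) scaled by TMM. That standard error is the absolute log2 change divided by the square root of the F statistic of its test. RPKM, the CPM per kilobase of exon, is used to compare levels between genes.

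In the DMSO libraries 3 ER chaperones had the highest levels of the genes per length. Calr, a calcium-binding lectin chaperone, stood at 415 ± 46.8 RPKM (SD, n = 3), Hspa5, the main Hsp70 chaperone of the ER also called BiP, at 398 ± 108, and Hsp90b1, the Hsp90 of the ER, at 326 ± 44.6. These 3 levels overlapped between lines and their order is not resolved. Among the other genes Ddit4, an inhibitor of mTORC1, had the highest mean at 212 ± 163 RPKM, with a spread over lines nearly as large as the mean. Atf4 itself stood at 148 ± 53.4 RPKM, between the serine synthesis enzymes Phgdh at 155 ± 17.5 and Psat1 at 142 ± 33.0, and these 3 did not differ beyond their spread. At the low end were Vldlr at 4.0 ± 1.2 RPKM and Stc2 at 1.82 ± 0.753 RPKM. Gdf15 had 0 counts in the 4 libraries of A1471 and at most 26 in any library, and Fgf21 had 0 to 3 counts in each library, which is no more than the floor of 3 counts (0.167 to 0.234 CPM), so no fold is given for Fgf21.

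**Figure D1:**
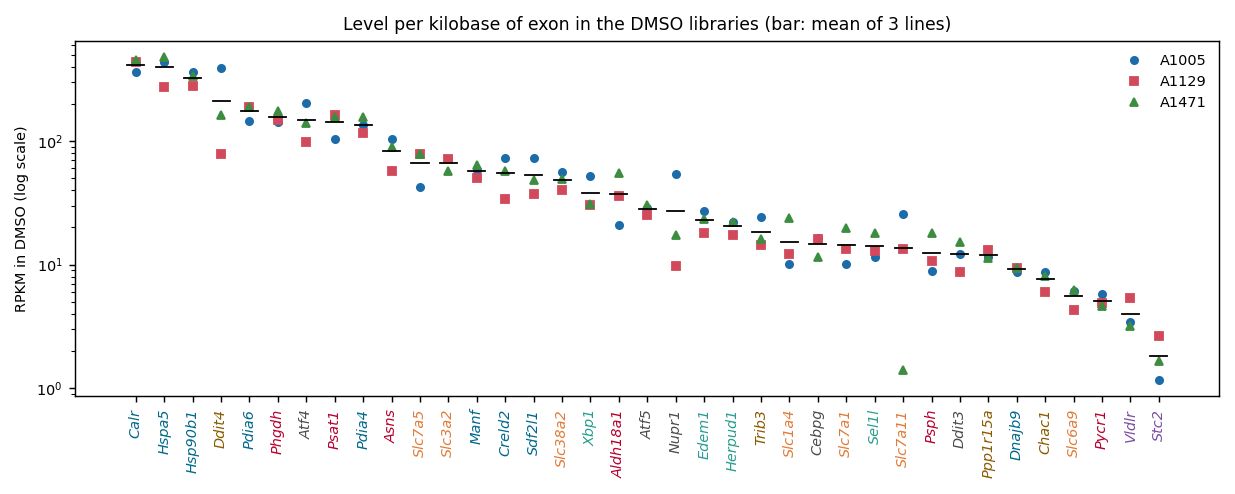
Level of each gene per kilobase of exon in the 3 DMSO libraries, on a log axis (RPKM), ordered by the mean, which is the black bar; points are the lines, gene names are coloured by role, and the 2 genes under 1 RPKM, Gdf15 and Fgf21, are left out. The ER chaperones Calr, Hspa5 and Hsp90b1 lead, and Slc7a11, Nupr1 and Ddit4 show the widest spread between lines.

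In the unpaired analysis 5 of the 38 genes fell (Trib3, Chac1, Asns, Psph and Pdia6), against 8.28% of all tested genes, and 1 rose (Herpud1), against 6.1%. With the line as a block 20 of the 38 fell, against 26.2% of all genes, and 6 rose, against 28.6%. Without regard to calls, 29 of the 38 had a lower fitted level in the combination, and their median log2 fold change was -0.45, beside 48.7% of all genes and a median of 0.02. The 3 combination libraries lay wholly above or below the 3 DMSO libraries for 12 of the 38 genes, beside 29.9% of all genes. The direction was the same in all 3 lines for 27 genes, 21 lower and 6 higher. Over all genes 31.9% were lower in all 3 lines and 34.0% higher.

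The unpaired count was 1 gene without A1129, 0 without A1471 and 6 without A1005. The count over all genes, given in the closing section, also fell without A1129 and without A1471. The 6 without A1005 are not the same genes, since 3 calls were lost (Chac1, Psph and Herpud1) and 3 were gained. With only the groups compared Asns alone kept its unpaired call, without a filter on low counts Chac1, Psph and Herpud1 lost theirs, and with limma-voom Psph and Herpud1 did. Of the 26 calls with the block, 23 remained without A1005, 20 without A1129 and 18 without A1471, and none changed sign. Those lost in at least 1 of the 3 were Atf5, Ddit4, Psat1, Phgdh, Slc6a9, Sdf2l1, Manf and Xbp1.

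**Figure D2:**
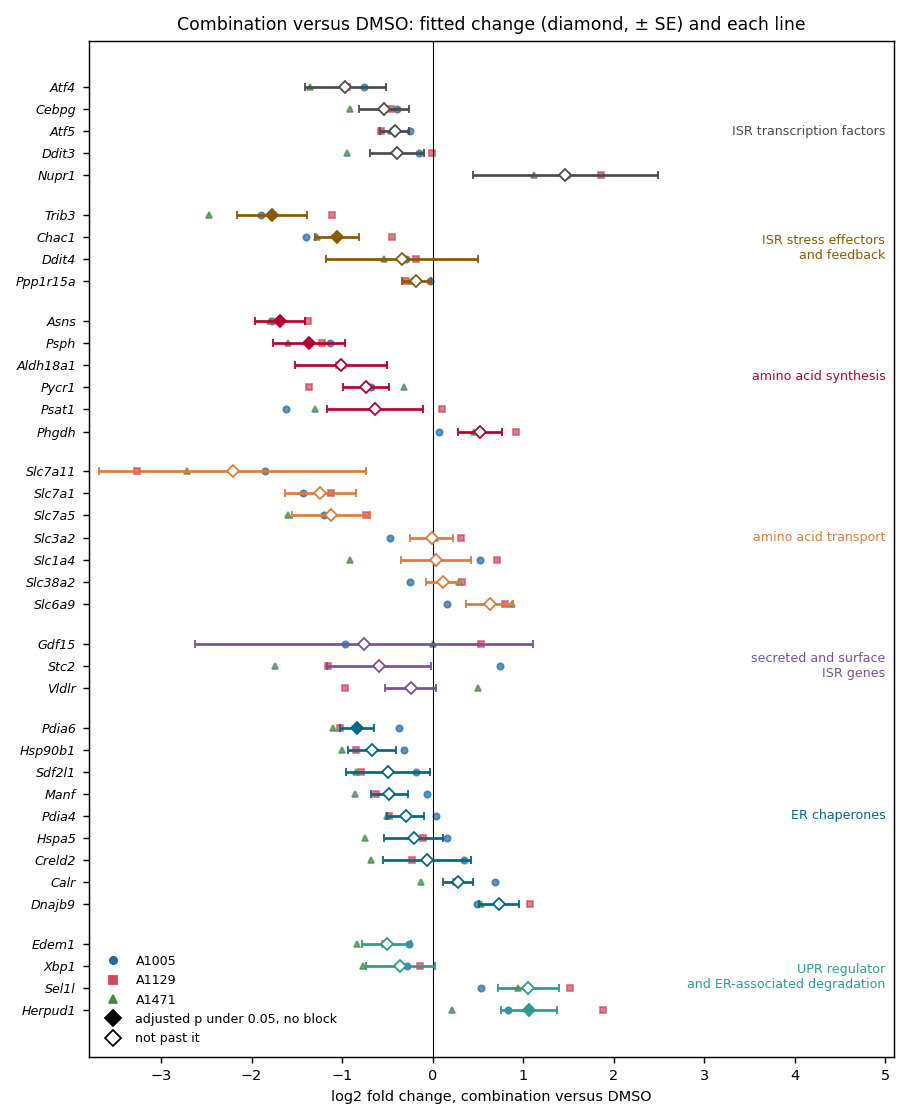
Log2 fold change of each of the 38 tested genes in the combination versus DMSO, grouped by role; diamonds are the fitted values with their SE, filled where the adjusted p of the unpaired analysis is under 0.05, and small symbols are the 3 lines. The 6 filled diamonds are Trib3, Chac1, Asns, Psph, Pdia6 and Herpud1, and 8 of the 9 ER chaperones of A1005 lie to the right of those of A1471, Dnajb9 being the exception.

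Asns and the feedback gene Trib3 fell in both analyses. Asns, which makes asparagine, stood at 285, 157 and 243 CPM with DMSO in A1005, A1129 and A1471, at 217, 125 and 205 with Crizotinib, at 159, 119 and 163 with PD173074 and at 82.9, 60.2 and 69.7 with the combination. Every combination library was below every other library. The log2 fold change from DMSO was -1.69 ± 0.28 (adjusted p = 0.00411), and -1.65 ± 0.12 with the block (adjusted p = 3.86e-06), and the unpaired call was lost without A1471 (adjusted p = 0.145). Trib3, a pseudokinase that restrains the response, went from 51.5, 30.6 and 34.1 CPM to 13.7, 14.1 and 6.04, with 44.7, 23.8 and 29.2 under Crizotinib and 29.4, 20.8 and 17.3 under PD173074. Its groups did not overlap, and A1471 had the lowest value. The fall was -1.78 ± 0.39 (adjusted p = 0.0157), and -1.78 ± 0.23 with the block (adjusted p = 0.00017), and the unpaired call was lost without A1129 (0.107) or A1471 (0.155).

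Of the 5 transcription factors none passed the unpaired test, and with the block 3 fell and 1 rose. Here and for the roles below, the shares over all genes were 8.28% lower and 6.1% higher unpaired. With the block they were 26.2% and 28.6%. Atf4, the central factor of the response, had 483, 232 and 333 CPM with DMSO and 286, 120.4 and 130.4 with the combination. Each line had less than its own control, but the groups overlapped because A1005 started highest. The change was -0.96 ± 0.44 (adjusted p = 0.184), and -1.01 ± 0.13 with the block (adjusted p = 0.000177). These are mRNA levels, and Atf4 is known to be controlled mainly in translation, which was not measured.

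Cebpg, a dimer partner of Atf4, went from 91.4, 89.9 and 64.4 CPM to 69.5, 65.5 and 34.2 and fell with the block (-0.57 ± 0.12, adjusted p = 0.00259). Atf5, a related factor, went from 56.8, 50.3 and 61.1 CPM to 47.7, 33.8 and 44.2 and also fell with the block (-0.42 ± 0.12, adjusted p = 0.014). Both were lower in each line, most in A1471 for Cebpg. Ddit3, the factor CHOP that is known for its role in cell death under ER stress, had 21.0, 14.9 and 26.2 CPM with DMSO and 19.0, 14.9 and 13.5 with the combination, a change of -0.36 ± 0.18 with the block that gave no call (adjusted p = 0.116). The exons of Ddit3 overlap those of Mars, and a second Ddit3 row of the table held 0 counts. Whether counting used strand is not given in the sources used here, so shared reads of overlapping genes could not be assigned.

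Nupr1, a small stress-induced chromatin protein, went the other way. It had 135, 24.6 and 43.6 CPM with DMSO, 126, 22.2 and 38.9 with Crizotinib, 177, 18.0 and 41.8 with PD173074 and 378, 89.4 and 95.1 with the combination. Each line was highest under the combination, and A1005 was above the other lines in every treatment, so that the groups overlapped. The unpaired change was 1.47 ± 1.02 (adjusted p = 0.391), and the rise with the block was 1.51 ± 0.20 (adjusted p = 0.000183).

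Among the 4 effectors and feedback genes 2 fell in the unpaired analysis and 3 with the block, beside 8.28% and 26.2% of all genes. Chac1, which degrades glutathione, had 14.3, 9.87 and 13.3 CPM with DMSO and 5.34, 7.21 and 5.43 with the combination. The groups did not overlap, though A1129 changed least. The fall was -1.06 ± 0.24 (adjusted p = 0.0179), and -1.05 ± 0.20 with the block (adjusted p = 0.00137). Leaving out any 1 line ended the unpaired call (adjusted p = 0.113 without A1005, 0.0681 without A1129 and 0.231 without A1471). Ddit4 had 690.3, 139 and 285 CPM and then 563, 122 and 197, a small fall that passed only with the block (-0.34 ± 0.13, adjusted p = 0.0454). Ppp1r15a, the GADD34 subunit that guides a phosphatase to eIF2, had 33.7, 38.5 and 33.5 CPM and then 33.1, 31.5 and 28.7, with no call in either analysis (adjusted p = 0.185 with the block).

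The 6 enzymes of amino acid synthesis gave 2 falls in the unpaired analysis, and 5 falls and 1 rise with the block. Over all genes 8.28% fell unpaired, and 26.2% fell and 28.6% rose with the block. Besides Asns, Psph, the last enzyme of serine synthesis, went from 38.6, 46.4 and 77.3 CPM to 17.5, 19.9 and 25.5 and fell in both analyses (-1.37 ± 0.40, adjusted p = 0.045, and -1.32 ± 0.15 with the block, adjusted p = 6.05e-05). Its groups did not overlap, but 452 bases of its exons overlap those of Cct6a on the other strand, and leaving out any 1 line ended the unpaired call (adjusted p = 0.0701 without A1005, 0.273 without A1129 and 0.110 without A1471). The unpaired call was also lost with limma-voom, size factors of DESeq2, total counts alone, no filter and only the groups compared (adjusted p = 0.0502, 0.0502, 0.0510, 0.0644 and 0.0681). Aldh18a1, which starts proline synthesis, went from 85.7, 145 and 224 CPM to 41.7, 70.6 and 113. The change was nearly the same in each line (-1.04, -1.04 and -0.99), and the fall passed with the block (-1.02 ± 0.10, adjusted p = 2.44e-05) but not without it (adjusted p = 0.222). Pycr1, which finishes proline synthesis, went from 22.8, 19.3 and 18.2 CPM to 14.1, 7.39 and 14.6 and fell with the block (-0.76 ± 0.20, adjusted p = 0.00824), most in A1129.

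The earlier enzymes of serine synthesis gave other values than Psph. Phgdh, which commits glycolytic carbon to serine, had 358, 365 and 437 CPM with DMSO and 376, 692 and 601 with the combination, a rise that passed with the block (0.50 ± 0.16, adjusted p = 0.0244) and was smallest in A1005. Psat1, the next enzyme, went from 442, 698 and 669.8 CPM to 143, 746 and 273. It was lower in A1005 and A1471 and not in A1129, where the log2 change was 0.10. The fitted fall was -0.88 ± 0.29 with the block (adjusted p = 0.0254) and did not pass without it (adjusted p = 0.486). Whether the 3 lines differed could not be tested with 1 library for each line and treatment.

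Of the 7 transporters none passed the unpaired test, and with the block 3 fell and 1 rose. Over all genes 8.28% fell and 6.1% rose unpaired, and 26.2% fell and 28.6% rose with the block. Slc7a11, which imports cystine, showed the widest range of levels of all the genes. It had 359.6, 185 and 19.6 CPM with DMSO, 350.5, 402 and 20.8 with Crizotinib, 189.7, 129 and 14.5 with PD173074 and 99.8, 19.2 and 2.87 with the combination. Each line was lowest under the combination, while A1129 with Crizotinib was above its own control. The change from DMSO was -2.21 ± 1.47 unpaired (adjusted p = 0.368) and -2.45 ± 0.40 with the block (adjusted p = 0.000606).

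Slc7a1, which imports arginine and lysine, went from 117, 155 and 229.6 CPM to 43.1, 71.4 and 97.6. The groups did not overlap, and the fall passed with the block (-1.26 ± 0.11, adjusted p = 1.61e-05) and came close without it (-1.24 ± 0.39, adjusted p = 0.0634). Slc7a5, the light chain of the leucine transporter LAT1, went from 159, 294 and 289.5 CPM to 68.8, 177 and 95.6 and fell with the block (-1.17 ± 0.15, adjusted p = 0.000131). Its heavy chain Slc3a2, which Slc7a11 also needs, had 251, 254 and 201 CPM and then 181, 316 and 204, a change of -0.04 ± 0.13 with no call (adjusted p = 0.813). Unpaired the change was -0.0097, and it was 0.017 with the size factors of DESeq2.

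The other transporters were level, mixed or higher. Slc38a2, a carrier of small neutral amino acids, had 497, 353 and 437 CPM and then 419, 441 and 534 (adjusted p = 0.413 with the block). Slc1a4, which carries alanine, serine and cysteine, had log2 changes of 0.53, 0.71 and -0.91 in A1005, A1129 and A1471, so A1471 went against the others, and gave no call. Slc6a9, a glycine carrier, went from 31.7, 22.2 and 32.2 CPM to 35.3, 38.5 and 59.4 and rose with the block (0.62 ± 0.17, adjusted p = 0.0124), though 1429 bases of its exons overlap those of Ccdc24 on the other strand.

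None of the 3 tested secreted and surface genes was called in either analysis. Vldlr, a lipoprotein receptor, had 34.5, 54.3 and 32.0 CPM with DMSO and 29.1, 27.6 and 45.3 with the combination, lower in A1129 and higher in A1471. Stc2, a secreted glycoprotein, had 6.01, 13.7 and 8.63 CPM and then 10.2, 6.08 and 2.49, higher in A1005 and lower in the others. Gdf15, a stress-induced cytokine, had 1.87, 0.132 and 0 CPM and then 0.889, 0.251 and 0, at or near the floor in A1129 and A1471.

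**Figure D3:**
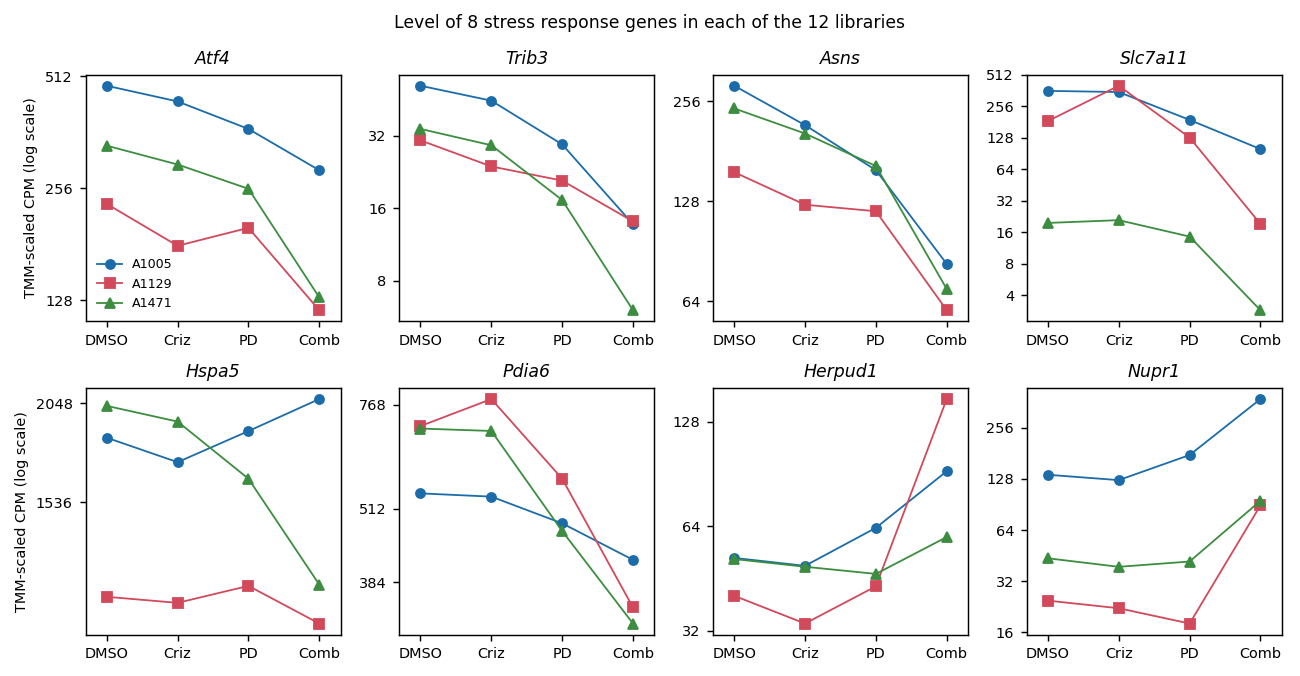
TMM-scaled CPM of 8 genes in all 12 libraries, on log axes, by treatment (Criz, Crizotinib; PD, PD173074; Comb, combination), with a line joining the libraries of each cell line. Asns and Trib3 are lowest under the combination in every line, Hspa5 goes down in A1471 and not in A1005, and Herpud1 and Nupr1 are highest under the combination.

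The ER chaperones gave 1 fall among 9 genes in the unpaired analysis, and 4 falls and 1 rise with the block. Over all genes 8.28% fell unpaired, and 26.2% fell and 28.6% rose with the block. Pdia6, a disulphide isomerase, stood at 544, 707 and 700.3 CPM with DMSO and 419, 348 and 327 with the combination. The groups did not overlap, and A1005 changed least. The fall was -0.83 ± 0.19 (adjusted p = 0.0172), and -0.82 ± 0.15 with the block (adjusted p = 0.00135), and the unpaired call was lost without A1129 (0.170) or A1471 (0.234).

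With the block Hsp90b1 also fell, from 1474, 1118 and 1346 CPM to 1179, 623 and 673 (-0.72 ± 0.14, adjusted p = 0.0016). Manf, a secreted ER stress factor, fell from 205, 178 and 225 CPM to 196, 115 and 124 (-0.50 ± 0.15, adjusted p = 0.0163). Sdf2l1, a cofactor of Hspa5, fell from 81.4, 41.6 and 53.2 CPM to 71.7, 23.9 and 29.6 (-0.59 ± 0.14, adjusted p = 0.00579). In all 3 the change in A1005 was the smallest of the lines. Dnajb9, another cofactor of Hspa5, rose from 22.2, 24.0 and 24.0 CPM to 31.3, 50.6 and 34.9 (0.71 ± 0.15 with the block, adjusted p = 0.0025; 0.73 ± 0.22 unpaired, adjusted p = 0.0525). It was the 1 chaperone that was higher in every line.

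Hspa5, the marker most used for ER stress, had 1853, 1168 and 2032 CPM with DMSO, 1726, 1148 and 1941 with Crizotinib, 1889, 1206 and 1645 with PD173074 and 2072, 1081 and 1211 with the combination. It was lower than its control in A1471, close to it in A1129 and higher in A1005. The change was -0.22 ± 0.16 with the block and gave no call (adjusted p = 0.288). Creld2 had log2 changes of 0.34, -0.23 and -0.68 in A1005, A1129 and A1471 (adjusted p = 0.487 with the block). Pdia4, a disulphide isomerase like Pdia6, had 0.04, -0.49 and -0.51 (adjusted p = 0.0563). Calr had 0.68, 0.25 and -0.13 (adjusted p = 0.124). For these 4 genes A1005 had the highest change and A1471 the lowest.

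The genes of ER-associated degradation went both ways. Herpud1, which gathers the degradation complex at the ER membrane, had 51.8, 40.3 and 51.5 CPM with DMSO and 92.1, 149 and 59.5 with the combination. The groups did not overlap, and most of the rise was in A1129. The change was 1.06 ± 0.31 (adjusted p = 0.0484), and 1.06 ± 0.30 with the block (adjusted p = 0.012). The unpaired call was lost on leaving out any 1 line, and without A1129 the fitted change was 0.56 (adjusted p = 0.320). Sel1l, the adaptor of the ubiquitin ligase of this pathway, went from 98.3, 110.2 and 153 CPM to 142, 315 and 295 and rose with the block (1.02 ± 0.16, adjusted p = 0.000468). Edem1, which selects glycoproteins for degradation, went from 175, 116 and 152 CPM to 146, 80.2 and 85.1 and fell with the block (-0.53 ± 0.12, adjusted p = 0.00443). Xbp1 mRNA, whose spliced form was not separated in gene counts, went from 169, 98.5 and 99.7 CPM to 139, 89.5 and 58.2 and fell with the block (-0.38 ± 0.14, adjusted p = 0.037).

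Set side by side, the 13 amino acid genes had a median log2 fold change of -0.74 in the combination and the 9 ER chaperones of -0.30, beside 0.02 for all genes. The 2 parts of the amino acid class differed. The 6 synthesis enzymes had a median of -0.88 (-1.09, -1.13 and -1.14 in A1005, A1129 and A1471). The 7 transporters had a median of -0.0097 (-0.47, 0.32 and -0.91 in the same order). With the block 8 of 13 amino acid genes fell and 2 rose, and 4 of 9 ER chaperones fell and 1 rose, beside 26.2% of all genes lower and 28.6% higher. The difference between the classes was not tested. By line, in the order A1005, A1129 and A1471, the median of the amino acid genes was -1.04, -0.73 and -0.99, and that of the ER chaperones was 0.04, -0.49 and -0.75. Of the 13 amino acid genes 10 were lower in A1005, 7 in A1129 and 9 in A1471, and of the 9 ER chaperones 4, 7 and 8. The mean log2 CPM of the amino acid genes minus that of the ER chaperones changed by -0.91 in A1005, -0.23 in A1129 and -0.24 in A1471, so the widest gap between the classes was in A1005. Slc7a11 carried much of the gap in the others: without it, a choice made after seeing the data, the value came to 0.0015 for A1129, -0.081 for A1471 and -0.83 for A1005. No test was made of these class means, as the genes of a class are not replicates.

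**Figure D4:**
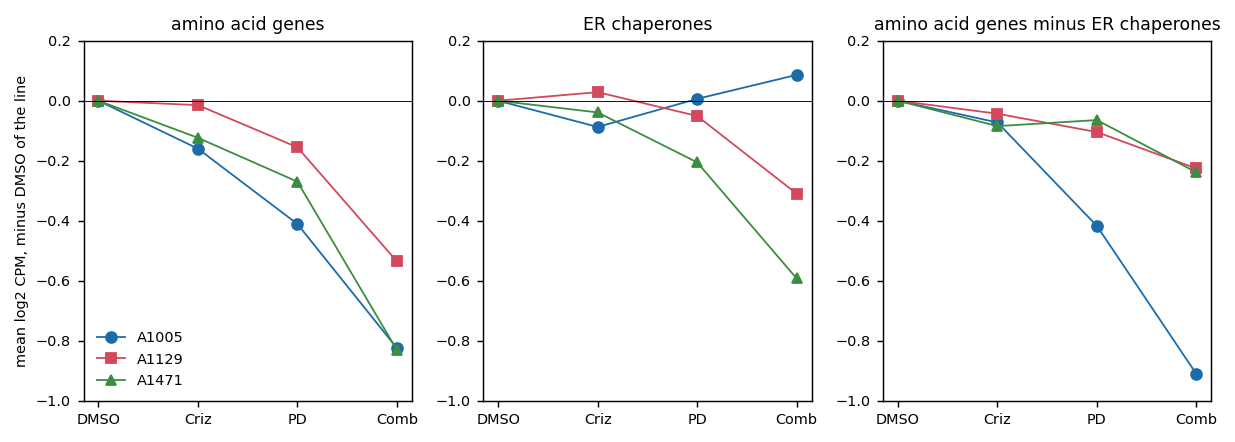
Mean log2 CPM of the 13 amino acid genes (left), of the 9 ER chaperones (middle) and the first minus the second (right), each as the difference from the DMSO library of the same line, by treatment; points are single libraries. The amino acid mean changed by -0.82, -0.54 and -0.83 under the combination in A1005, A1129 and A1471, and the ER chaperone mean changed by 0.09, -0.31 and -0.59.

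Crizotinib alone called none of the 38 genes with or without the block, and 0% of all genes, by edgeR. At an unadjusted p under 0.05 there were 0 genes unpaired and 2 with the block, and DESeq2 called 0 of the 38 and 1 of all genes. The values were small: the fitted log2 change ranged from -0.36 (Psph) to 0.46 (Slc7a11), and the median was -0.08. The log2 change of Slc7a11 was -0.04, 1.12 and 0.09 in A1005, A1129 and A1471, so 1 line set the highest value. Asns was -0.39, -0.32 and -0.25, lower in each line without a call. Crizotinib medians were -0.14 for the amino acid genes and -0.08 for the ER chaperones.

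PD173074 alone called none of the 38 genes in the unpaired analysis, where it called 0% of all genes. At an unadjusted p under 0.05 there were 3 of the 38, and DESeq2 called 0 of the 38 and 27 of all genes. With the block 1 of the 38 fell, against 0.52% of all genes, and 0 rose, against 1.62%. That gene was Asns, with log2 changes of -0.84, -0.39 and -0.58 in A1005, A1129 and A1471 (-0.60 ± 0.11 with the block, adjusted p = 0.0255). Trib3 had -0.81, -0.55 and -0.97 and Chac1 -0.99, -0.36 and -0.61, each lower in every line, and neither passed (adjusted p with the block 0.11 and 0.115). The median was -0.23 for the amino acid genes and -0.13 for the ER chaperones. These comparisons and the combination share the same 3 DMSO libraries.

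**Figure D5:**
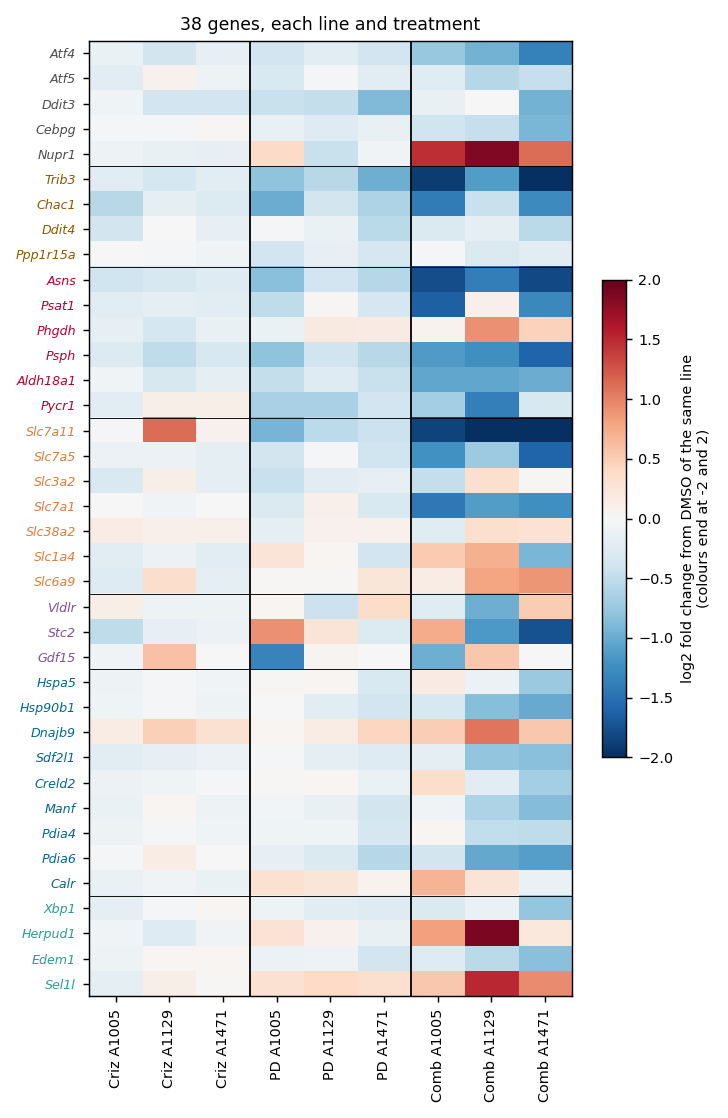
Log2 fold change from the DMSO library of the same line for the 38 tested genes (rows, coloured by role) with Crizotinib, PD173074 and the combination (columns, 1 per line); blue is lower and red is higher, and colours end at -2 and 2. The combination columns are the most coloured, Slc7a11 in A1129 with Crizotinib is the reddest single-agent cell, and Slc1a4, Stc2 and Vldlr differ in sign between lines.

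Against Crizotinib alone, the combination lowered 3 of the 38 genes in the unpaired analysis, beside 7.78% of all genes, and raised 1, beside 5.4%. With the block 17 fell, beside 26%, and 7 rose, beside 27.4%. The log2 changes were -1.36 ± 0.28 for Asns (adjusted p = 0.0112), -1.53 ± 0.39 for Trib3 (adjusted p = 0.029) and -0.88 ± 0.19 for Pdia6 (adjusted p = 0.0139), and Herpud1 rose by 1.19 ± 0.31 (adjusted p = 0.0344). The unpaired count of 4 was 4 without A1005, 1 without A1129 and 0 without A1471. Slc7a11 had the lowest fitted change, -2.93 ± 0.41 with the block (adjusted p = 0.000247), and Calr rose here with the block (0.40 ± 0.15, adjusted p = 0.0423) where it had no call against DMSO. Whether those Calr changes differ was not tested.

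Against PD173074 alone, none of the 38 genes passed the unpaired test of edgeR, beside 3.93% of all genes lower and 0.838% higher. At an unadjusted p under 0.05 there were 6 genes, Asns was nearest (-1.05 ± 0.27, adjusted p = 0.0599), and DESeq2 called 2. With the block 13 fell, beside 20.2%, and 5 rose, beside 19.6%. Those that fell included Slc7a1 (-1.10 ± 0.11, adjusted p = 7.54e-05), Slc7a5 (-0.90 ± 0.15, adjusted p = 0.00127) and Atf4 (-0.68 ± 0.13, adjusted p = 0.00322). Those that rose were Nupr1, Slc6a9, Dnajb9, Herpud1 and Sel1l.

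The departure from additivity is the log2 change of the combination minus the sum of the changes with each inhibitor. It gave 0 calls among the 38 genes in the unpaired analysis, beside 0.918% of all genes, with 1 gene at an unadjusted p under 0.05 and 0 calls by DESeq2. With the block 4 genes were below the sum, beside 10.7% of all genes, and 1 above it, beside 5.46%. The departure was -2.30 ± 0.55 for Slc7a11 (adjusted p = 0.0216), -1.08 ± 0.16 for Slc7a1 (adjusted p = 0.00179), -0.76 ± 0.20 for Slc7a5 (adjusted p = 0.0331) and -0.73 ± 0.16 for Asns (adjusted p = 0.0163). Nupr1 was above by 1.65 ± 0.28 (adjusted p = 0.00493). The 4 genes below the sum make up 10.5% of the 38, close to the share over all genes.

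A test over the lines, with treatment in the model, called 27 of 38 genes (71.1%), a share close to the 73.9% of all genes. The called genes were highest in A1005 for 15, in A1471 for 9 and in A1129 for 3. Slc7a11 spanned 99.8 to 359.6 CPM in A1005, 19.2 to 402 in A1129 and 2.87 to 20.8 in A1471. Nupr1 spanned 126 to 378 CPM in A1005, 18.03 to 89.4 in A1129 and 38.9 to 95.1 in A1471, so A1005 lay above the others throughout. Ddit4 spanned 534 to 690.3 CPM in A1005, 122 to 139 in A1129 and 196 to 285 in A1471. In these 3 genes the gap between lines was larger than most changes with treatment, and their combination changes passed only with the block. Genes with little difference between lines included Chac1 (adjusted p = 0.727 for the line), Calr (0.562) and Pdia6 (0.313).

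Other genes of the 2 responses, from 4 lists, were read in the combination beside the 39. The shares over all genes were 8.28% lower and 6.1% higher unpaired, and 26.2% and 28.6% with the block. Of 20 cytosolic aminoacyl-tRNA synthetases, which charge tRNAs and are known Atf4 targets in part, 9 fell and 0 rose unpaired, and 19 fell with the block. Their median log2 change was -0.79, and the largest falls were Vars (-1.49 ± 0.19, adjusted p = 0.0012), Cars (-1.39 ± 0.15, adjusted p = 0.000587) and Farsb (-1.30 ± 0.22, adjusted p = 0.00454). Of 18 tested further Atf4 pathway genes 7 fell and 0 rose unpaired, with 11 and 2 with the block. The largest falls were in the mitochondrial folate enzymes Mthfd2 (-2.42 ± 0.35, adjusted p = 0.00217), Shmt2 (-1.99 ± 0.27, adjusted p = 0.00178) and Mthfd1l (-1.69 ± 0.32, adjusted p = 0.00825). The stress-induced factor Atf3 rose with the block (1.45 ± 0.43, adjusted p = 0.0159), as did Jdp2, a repressor of the same family (0.75 ± 0.15, adjusted p = 0.0017). Atf3 had 4.92, 5.52 and 6.91 CPM with DMSO in A1005, A1129 and A1471, and 33.7, 9.21 and 9.81 with the combination. Most of its rise was in A1005.

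Of 16 stress sensors and parts of the eIF2 machinery 2 fell and 0 rose unpaired, with 9 and 3 with the block, beside the same shares over all genes. Eif2b3, a subunit of the factor that recharges eIF2 (-1.29 ± 0.34, adjusted p = 0.0315), and Eif2s1, the eIF2 subunit that is phosphorylated (-1.07 ± 0.24, adjusted p = 0.017), both fell. Of 28 tested further genes of the unfolded protein response and ER folding 2 fell and 1 rose unpaired, with 7 and 6 with the block, none of them above those shares. Os9, a lectin of ER-associated degradation that works with Sel1l, rose (1.25 ± 0.24, adjusted p = 0.0083), and Ssr3 of the translocon (-0.58 ± 0.13, adjusted p = 0.0203) and the prolyl isomerase Fkbp2 (-0.53 ± 0.15, adjusted p = 0.0412) fell. The median of this list was 0.13, beside -0.30 for the 9 chaperones. Its lowest fitted change, -1.67, was that of Ero1l, which had no unpaired call. In A1005, A1129 and A1471 Ero1l went from 743, 170 and 813 CPM with DMSO to 158, 53.6 and 331 with the combination.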

How the data were processed

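RNA from 12 tumoursphere libraries was measured by RNA-sequencing. The authors deposited raw counts of reads per Ensembl gene, and the submitters' processing notes name bcl2fastq, STAR and HTSeq and the mouse build mm10. Strand setting and annotation release are not given in the sources used here. Gene positions and exon lengths came from the GENCODE annotation supplied for that build, and promoters from RefSeq on GRCm38.p6. Groups and lines were taken from the labels, and 0 columns were unmapped.

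Low counts were removed with filterByExpr (settings 10 per library and 15 in total), the rest scaled by TMM and tested with glmQLFit and glmQLFTest of edgeR 4.0.16 in R 4.3.3, in 1 fit of treatment over all 12 libraries, with the line as a block as an alternative. Log2 CPM used a prior count of 2. Deviations of same-line libraries from their treatment means correlated at 0.766 to 0.962 over 18 pairs, and the labels give the line, so libraries are paired by line. The unpaired p-values measure the spread between 3 lines. Those with the block measure the spread that remains once the level of each line is taken out. Those of the test over the lines cover the spread between libraries only. No 2 libraries agreed within sampling noise (lowest chi-square per degree of freedom 4.54 over 66 pairs). Floors of 3 counts cover counting error only. Scripts were tested on simulated data.

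The 39 genes and the other lists were chosen with earlier results of these data known. Named were all 39 genes, in each other list up to 3 largest rises and falls past the threshold in the combination (with the block where there was none), 6 check genes, and promoters of genes with the smallest p in both classes whose window held an element, to which the other printed promoters, those of Chac1 and Herpud1 among them, were added after values were seen. Alternatives were DESeq2 1.42.0, limma-voom (limma 3.58.1), size factors of DESeq2, total counts alone, no filter, 10 counts in every library, only the groups compared, a log2 change of at least 1.5 and leaving out each line. Python 3.11.15 made the tables and plots.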

Additional observations from a re-analysis of the deposited data

Results flagged for a closer look

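With the line as a block, 5 of the 38 genes (13.2%) departed from the sum of the single-inhibitor changes under the combination, which is a tested difference between the effect of one inhibitor with and without the other. Slc7a11 departed by -2.30, Slc7a1 by -1.08, Slc7a5 by -0.76 and Asns by -0.73 on the log2 scale, and Nupr1 by 1.65. None of these passed without the block, and over all genes 10.7% were below the sum and 5.46% above it, so the share is not above that of all genes. For Slc7a11 the Crizotinib library of A1129, at 402 CPM beside 185 with DMSO, enters this difference, and its part was not tested.

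For 3 genes the lines moved in opposite directions in the combination versus DMSO, by at least 0.5 on the log2 scale each way. Slc1a4 changed by 0.53 in A1005, 0.71 in A1129 and -0.91 in A1471. Vldlr changed by -0.24 in A1005, -0.97 in A1129 and 0.50 in A1471. Stc2 changed by 0.75 in A1005, -1.15 in A1129 and -1.74 in A1471, at 33 to 228 counts per library. With 1 library for each line and treatment these differences between lines were not tested.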

How the results depend on the processing

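In the combination versus DMSO the 6 calls among the 38 genes became 26 with the replicate block, 10 with DESeq2, 3 without a filter on low counts, 1 with only the groups compared and 2 with a log2 change of at least 1.5, and 0 to 6 on leaving out each line. Chosen after seeing the data, DESeq2 with the block gave 24, the block with size factors of DESeq2 25, the block with total counts alone 24, and the block without A1005, A1129 and A1471 gave 27, 20 and 21. Against Crizotinib the 4 calls became 24 with the block, 9 with DESeq2, 1 with only the groups compared, 1 with a log2 change of at least 1.5, and 0 (without A1471) to 4 on leaving out each line, with 1 without A1129. Against PD173074 the 0 calls became 18 with the block and 2 with DESeq2. PD173074 versus DMSO went from 0 calls to 1 with the block, and the departure from additivity from 0 to 5. The block changed no call with Crizotinib alone. The counts under the other settings, and that of the line differences, stayed within 1.5 times. For all genes the count in the combination was 1990 unpaired, 7578 with the block, 2948 with DESeq2, 1160 without a filter, 594 with only the groups compared, 794 with a log2 change of at least 1.5, 324 without A1129 and 120 without A1471.

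The median of the amino acid genes was -0.74, moved to -0.94 with limma-voom, and ranged from -0.98 (without A1129) to -0.75 (without A1005) on leaving out each line. The median of the ER chaperones kept its sign in every setting, and the total-count scaling moved the median of all genes from 0.024 to 0.070. Without Slc7a11, a choice made after seeing the data, the mean change of the amino acid genes minus that of the ER chaperones went from -0.91 to -0.83 in A1005, from -0.23 to 0.0015 in A1129 and from -0.24 to -0.081 in A1471. Among single genes the sign turned only in those with no call: Slc3a2 (0.018 with DESeq2, 0.017 with its size factors, 0.040 with total counts, 0.028 with 10 counts in every library, and -0.22 to 0.20 over the lines left out), Gdf15 (0.21 with limma-voom), and, over the lines left out, Slc1a4 (-0.30 to 0.65), Vldlr (-0.63 to 0.18), Hspa5 (-0.47 to 0.070) and Creld2 (-0.49 to 0.19). The cause was not tested.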

Other observations

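The 4 eIF2 kinases were read again after their values were seen. Eif2ak3, the ER-bound kinase PERK, went from 32.8, 26.3 and 43.0 CPM to 38.3, 56.8 and 62.4 and rose with the block (0.64 ± 0.16, adjusted p = 0.00617), as did Eif2ak2 (0.56 ± 0.09, adjusted p = 0.000657) and Eif2ak1 (0.41 ± 0.08, adjusted p = 0.00199), all by edgeR, beside 28.6% of all genes. Eif2ak4, the kinase GCN2 that senses uncharged tRNA, gave no call (0.14 ± 0.15, adjusted p = 0.46), and none of the 4 passed without the block. These are mRNA levels, and the activity of the kinases was not measured.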
